A study of Citrus sinensis with 6 samples.

Results

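Shoot tips of sweet orange taken 7 days after self-pruning were compared with shoot tips taken when self-pruning began, across every citrus gene on the array. The comparison rests on 4 of the 6 arrays of the series, the 2 labelled as after self-pruning and the 2 labelled as its beginning, and on the 30171 of 30395 probe sets whose identifiers mark them as citrus transcripts. A probe set is a group of short probes that reads 1 transcript, and several probe sets can read 1 gene. RNA came from spring shoots of the navel orange cultivar 'Cara Cara' (Citrus sinensis) grown outdoors under natural conditions, with no treatment in any group. The labels call the tissue shoot meristems, and by the methods the tips included the abscission zone (AZ), the layer of small cells at which the tip breaks off. Stage 3 was sampled 7 days after self-pruning, stage 2 at its beginning and stage 1, used here to estimate the spread and to show the earlier level, 3 days before it. Necrosis, the death of tissue, had by the methods begun around the AZ at stage 3. Each stage has 2 arrays of the Affymetrix Citrus Genome GeneChip, labelled as biological replicates. By the methods, replicate samples came from different groups of trees, and no label ties an array to a group, so the p-values measure the spread between these arrays.

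Self-pruning is the shedding of the tip of a citrus shoot, after which growth goes on from side buds. In plants, a breaking layer usually opens when enzymes such as pectinesterases, pectate lyases and polygalacturonases loosen the pectin that glues neighbouring cells, and ethylene often promotes this. Cells left behind can thicken and waterproof their walls with cellulose, xylan, lignin and cutin, whereas a growing tip is rich in dividing cells, in ribosomes and in factors that shape young leaves.

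Median log2 signals of the 6 arrays were 7.30 to 7.39, the 2 arrays of a stage correlated at 0.9987 to 0.9988 across probe sets, and arrays of stage 3 and stage 2 correlated at 0.955 to 0.956. Probe sets are not independent replicates, so these values only describe the arrays. Actin is read near both ends of its transcript, and the log2 signal at the 3′ end was above that at the 5′ end by 1.62 and 1.66 on the stage 3 arrays and by 1.89 and 1.93 on the stage 2 arrays. For ubiquitin the same difference was -0.11 and -0.18 at stage 3 and 0.28 and 0.25 at stage 2. This sign of RNA quality thus differs between the stages, and its part in the results below was not tested. On the array, 60 probe sets read reporter genes and 44 read citrus pathogens. The highest reporter signals were 5.37 and 5.25 at stage 3 and 5.64 and 5.44 at stage 2, and probes of random sequence had medians of 7.93 and 7.89 at stage 3 and 7.97 and 7.91 at stage 2, so a signal below these is not shown to stand above background. In a fit that kept these controls, 30% of the reporter and 36.4% of the pathogen probe sets passed an adjusted p under 0.05 (Benjamini-Hochberg, limma). Of the 23 random-sequence probe sets, 8.7% passed. In the main fit, without controls, 38.1% of the 11162 citrus probe sets with a mean signal under 6 passed, and 81.7% of the 19009 brighter ones. The calls among the reporters and pathogens were mostly downward, with 2 higher and 16 lower among the reporters and 0 higher and 16 lower among the pathogens. None of the control probe sets differed by 2-fold. A small difference in a dim probe set is therefore no more than the controls show.

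Far more genes differed by a small amount than by a large one, and the large differences were more often rises. Probe sets were called where the difference reached 4-fold and the unadjusted p did not exceed 0.001, and separately at an adjusted p under 0.05 from limma over all 30171. At 4-fold, 565 probe sets (1.87%) were higher after self-pruning and 286 (0.948%) were lower, 851 (2.82%) in all. At an adjusted p under 0.05 alone, 8768 (29.1%) were higher and 11021 (36.5%) lower, which is 65.6% of the array. The median log2 difference was -0.05, and 26579 probe sets lay within 2-fold. Rises outnumbered falls more clearly as the difference grew, with 170 higher and 64 lower by at least 8-fold, 45 and 11 by at least 16-fold, and 12 and 1 by at least 32-fold. In each of the 851, both arrays of one stage lay above both arrays of the other, as they did in each of the 19789 probe sets called by adjusted p. The SE of a difference was small, with a median of 0.0523 over all probe sets on the log2 scale. The 565 that were higher had a median signal of 9.47 after self-pruning and 6.49 at its start, and in 219 of them the mean at the start was under 6. The 286 that were lower had a median signal of 6.94 after and 9.60 at the start, and 81 ended under 6. Where one side lies that low, the size of the fold is uncertain. A lower or higher signal in a whole tip can come from fewer or more cells of a type or from less or more RNA per cell, and these cannot be told apart. The part of dying tissue at stage 3 was not tested.

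**Figure D1:**
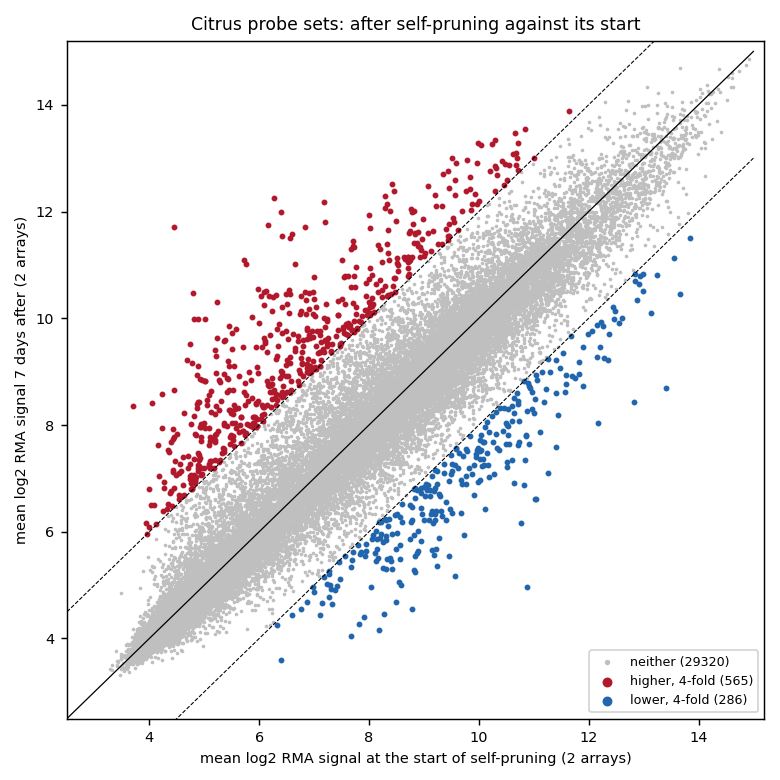
Mean log2 RMA signal of the 30171 citrus probe sets 7 days after self-pruning (vertical axis) against its start (horizontal axis), 2 arrays each, with dashed lines at 4-fold. Red points are the 565 probe sets called higher at 4-fold and blue points the 286 lower. Most red points start from signals under 8.

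Real-time PCR primers that the study designed identify some of the transcripts on which the results below turn. They are shown 5′ to 3′ as the study's primer list gives them, in lower case throughout, because no probe or transcript sequence was used here. PCR values were not used.
ERF017-like (Cit.3778.1.S1_at) sense: tatctggctgggctccta
ERF017-like (Cit.3778.1.S1_at) antisense: atgtcgggtgggttgtcc
homeodomain-like, LHY on the array (Cit.17027.1.S1_s_at) sense: cgtcatgcggttccaata
homeodomain-like, LHY on the array (Cit.17027.1.S1_s_at) antisense: gcctctactacgacggcta
growth-regulating factor 1-like (Cit.24314.1.S1_s_at) sense: ccacatcgtcgcataggt
growth-regulating factor 1-like (Cit.24314.1.S1_s_at) antisense: gaaggatgggatggcagt
growth-regulating factor 3-like (Cit.31056.1.S1_at) sense: tttgcctgtgccacctga
growth-regulating factor 3-like (Cit.31056.1.S1_at) antisense: tcggaacaccgccatttt
AIL1-like (Cit.3972.1.S1_at) sense: gcaagctagaataggaagggtt
AIL1-like (Cit.3972.1.S1_at) antisense: caaggtcactggcaatcag

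The 15 largest rises with a name spanned log2 differences of 4.40 to 7.26. Names come from the study's homologue annotation or, where that has none, from the shortened gene name on the array. The top probe set, Cit.5743.1.S1_s_at, carries the array name "peroxid", which fits the peroxidases, enzymes that use hydrogen peroxide to oxidise phenols in the wall. Its signals were 11.70 and 11.72 after self-pruning and 4.36 and 4.54 at the start, a log2 difference of 7.26 ± 0.07 (SE, n = 2 arrays per stage) or 153-fold (adjusted p = 3e-06, limma). Both arrays at the start read no higher than the reporter controls, so the fold rests on a background signal. Next came the ethylene-responsive transcription factor ERF017-like (Cit.3778.1.S1_at), with 12.25 on both arrays after self-pruning and 6.19 and 6.36 at the start, 63.0-fold (log2 5.98 ± 0.06, adjusted p = 3e-06, limma). Its signal was 9.05 on both arrays from 3 days before, so part of this rise followed a lower level at the start. Pectinesterase 2-like (Cit.28980.1.S1_s_at), which takes methyl groups off pectin, had 10.46 and 10.47 after and 5.05 and 4.52 at the start, 51.3-fold (log2 5.68 ± 0.26, adjusted p = 6e-05, limma). Its arrays at the start differed by more than those of the other top genes, which gives its wider error. The array's description marks it as reversed, as it does 6858 of the citrus probe sets, and the sources used here do not give which strand such probes read. The same mark stands beside Cit.22186.1.S1_s_at, Cit.22187.1.S1_s_at, Cit.22463.1.S1_s_at, Cit.22550.1.S1_s_at, Cit.24193.1.S1_at, Cit.24314.1.S1_s_at, Cit.25299.1.S1_at, Cit.26284.1.S1_at, Cit.27379.1.S1_at and Cit.28881.1.S1_s_at, named below.

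Other large rises held a similar gap. The MATE-type transporter multidrug and toxin extrusion protein 1 (Cit.7653.1.S1_at) had 10.30 and 10.31 after self-pruning and 5.32 and 5.14 at the start. FLA11-like (Cit.3876.1.S1_s_at), a fasciclin-type arabinogalactan protein of the wall surface known from fibres and wood, had 11.71 and 11.70 after and 6.84 and 6.81 at the start, and a DUF579 protein (Cit.31273.1.S1_at), of a family that modifies xylan, had 9.99 and 9.97 after and 5.02 and 5.01 at the start. These 3 rose by 5.08 ± 0.07, 4.88 ± 0.04 and 4.96 ± 0.04 on the log2 scale (adjusted p at most 3.9e-06, limma). The remaining 9 of the 15 largest rises with a name lay between 4.40 and 5.24. They include a heavy metal-associated isoprenylated plant protein 26-like gene (Cit.6076.1.S1_s_at, 5.17 ± 0.05), an arabinogalactan protein 19 (Cit.20524.1.S1_at, 4.40 ± 0.11), germin-like protein 10 (Cit.4629.1.S1_s_at, 4.57 ± 0.12) and a gene named "laccas" on the array (Cit.2409.1.S1_s_at), after the laccases that couple lignin units. For this last gene the signals were 9.54 and 9.50 after self-pruning and 4.81 and 4.67 at the start, but 11.64 and 11.62 on the arrays from 3 days before, so that its rise followed a lower level at the start. The largest rise among probe sets with no name in either source was that of Cit.8500.1.S1_s_at, with 12.30 and 12.28 after self-pruning and 8.30 and 8.29 at the start.

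The 15 largest falls with a name ran to log2 differences between -5.90 and -3.62. A homeodomain-like gene whose array name begins with LHY (Cit.17027.1.S1_s_at), LHY being a morning factor of the plant circadian clock, had 4.84 and 5.10 after self-pruning and 10.88 and 10.86 at the start, so it fell by 5.90 on the log2 scale (SE 0.09, 59.8-fold, adjusted p = 4.8e-06, limma). A receptor-like protein kinase (Cit.9672.1.S1_s_at) had 8.70 and 8.67 after and 13.43 and 13.40 at the start (26.5-fold lower, adjusted p = 3e-06, limma), which places it among the brightest signals at the start. A basic 7S globulin precursor (Cit.22550.1.S1_s_at), of a family related to aspartic proteases, had 6.09 and 6.25 after and 10.77 and 10.76 at the start, 24.1-fold lower, and GRL7 (Cit.7055.1.S1_at) had 5.10 and 5.25 after and 9.55 and 9.57 at the start. All 4 fell with no overlap between the arrays.

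Among the other 11 of the 15 largest named falls, several act in leaf growth. FORKED1, which joins leaf veins in Arabidopsis, was read by Cit.7169.1.S1_at (5.33 and 5.38 after, 9.25 and 9.24 at the start) and by Cit.32389.1.S1_at (3.93 and 4.18 after, 7.66 and 7.69 at the start). Their log2 differences were -3.89 and -3.62. Tryptophan decarboxylase (Cit.16301.1.S1_at), which makes tryptamine, had 5.84 and 6.04 after and 9.74 and 9.71 at the start, and a zinc finger homeodomain gene (Cit.15501.1.S1_at) had 6.80 and 7.03 after and 10.64 and 10.64 at the start. The adjusted p of these 4 was at most 1.3e-05 (limma). Of probe sets with no name, the largest fall was in Cit.39637.1.S1_x_at, with 6.61 and 6.63 after and 11.04 on both arrays at the start (21.4-fold lower). No name in either source was carried by 63 of the 565 higher and 24 of the 286 lower probe sets.

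**Figure D2:**
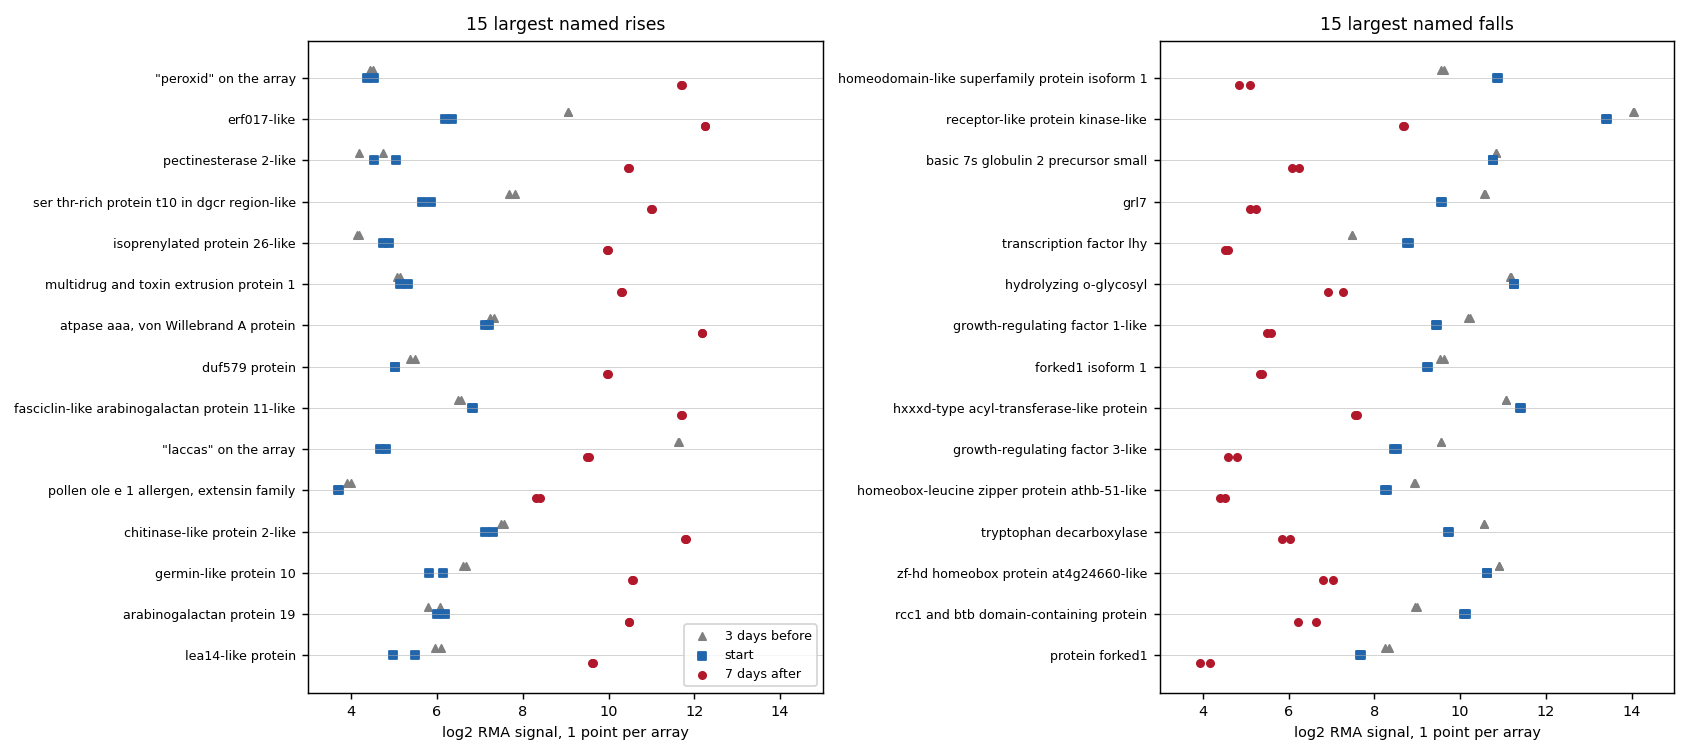
Log2 RMA signals of the 15 largest rises (left) and 15 largest falls (right) that carry a gene name, 1 point per array, at 3 days before self-pruning (grey triangles), its start (blue squares) and 7 days after (red circles). The red circles lie apart from the blue squares in every gene, which was a condition for naming. The gene named "laccas" on the array had its highest signals 3 days before.

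Genes that build the secondary wall were mostly higher in the study's annotation. Lists by shortened array name, given below, were near all probe sets but miss some of these genes. The study's homologue annotation covers only genes that it had called as changed against stage 1 on these same arrays, so lists taken from it are not independent evidence of a direction. Of its 24 probe sets for secondary wall formation, 20 rose and 4 fell at an adjusted p under 0.05, with a median log2 difference of 3.31, beside 29.1% higher, 36.5% lower and a median of -0.05 over all probe sets. At 4-fold, 18 were higher and 2 lower. A cellulose synthase catalytic subunit (Cit.6456.1.S1_at), which spins out cellulose chains, had 10.52 on both arrays after self-pruning and 6.04 and 6.21 at the start (21.0-fold, adjusted p = 4.2e-06, limma). A COBRA-like protein (Cit.5276.1.S1_at), of a family needed for ordered cellulose, had 10.43 and 10.41 after and 5.99 and 6.09 at the start (20.8-fold). Chitinase-like protein 2-like (Cit.1365.1.S1_x_at), named for its fold although its relatives act in cellulose deposition, had 11.79 and 11.80 after and 7.11 and 7.30 at the start (24.1-fold). No array from after self-pruning came near the level at the start in these 3 genes.

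Xylan and lignin genes of the list moved the same way. IRX9-like (Cit.6760.1.S1_at), a transferase that extends the xylan backbone, had 10.51 and 10.55 after and 6.43 and 6.66 at the start (log2 3.98 ± 0.08). Laccase 3 (Cit.15075.1.S1_at) had 8.28 and 8.36 after and 4.88 and 4.85 at the start (3.45 ± 0.04), and a galacturonosyltransferase 12-like gene (Cit.15140.1.S1_at) had 8.91 and 8.94 after and 5.68 and 5.58 at the start (3.30 ± 0.04). The adjusted p was at most 8.2e-06 in the 3 genes (limma). NAC43-like (Cit.7942.1.S1_at), a close relative of an Arabidopsis switch for fibre wall thickening, reached only 6.07 and 5.86 after, against 4.0 and 3.92 at the start, both under the median of the random-sequence probes. The 4 members that fell are cellulose synthase-like genes rather than cellulose synthases, D5-like (Cit.37298.1.S1_at and Cit.38806.1.S1_at) and G2-like (Cit.9268.1.S1_s_at and Cit.20961.1.S1_s_at), with log2 differences of -2.24 to -1.62.

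Over the whole array the names are cut short, which leaves lists incomplete but does not choose their members by their change. There, 19 probe sets named for cellulose synthase or COBRA split into 6 higher and 7 lower (median -0.05), near the shares of all probe sets. None of these 19 was higher by 4-fold. The list misses the cellulose synthase subunit and the COBRA-like gene named above, because their array names do not match. It also misses a cellulose synthase (Cit.6652.1.S1_at) that was 9.08-fold higher, so it does not show that such genes stayed level. Of 83 lignin and phenylpropanoid enzymes, 28 were higher and 36 lower (median -0.14), with 6 higher and 2 lower at 4-fold. Ferulate 5-hydroxylase (Cit.14813.1.S1_s_at), which leads to syringyl lignin, had 10.48 and 10.47 after and 6.89 and 6.93 at the start (log2 3.57), and a caffeoyl O-methyltransferase (Cit.22186.1.S1_s_at) had 9.65 and 9.71 after and 7.54 and 7.70 at the start (2.06). By contrast a gene named after 4-coumarate-CoA ligase (Cit.38493.1.S1_at), an early enzyme of the same pathway, had 5.71 and 5.37 after and 7.87 and 7.98 at the start (-2.39). Thus single lignin genes moved strongly both ways while the list as a whole stayed near the array.

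Enzymes that loosen pectin rose as a group, also on the whole array. Of 61 pectin enzymes by array name, 37 (60.7%) were higher and 10 (16.4%) lower, with a median of 0.40 and 7 higher and 0 lower at 4-fold. Of the 17 in the study's annotation, 17 rose, with a median of 1.62. Pectinesterase/pectinesterase inhibitor genes were among the brightest signals after self-pruning. Cit.193.1.S1_s_at had 13.55 and 13.56 after and 10.83 and 10.84 at the start (6.58-fold), and Cit.1729.1.S1_s_at had 13.23 and 13.25 after and 10.06 and 10.03 at the start (9.17-fold). Pectate lyases, which cut demethylated pectin, rose less. Cit.35568.1.S1_s_at had 12.88 and 12.86 after and 10.57 and 10.53 at the start (4.99-fold), and Cit.3283.1.S1_s_at had 13.26 and 13.27 after and 11.64 and 11.64 at the start (3.08-fold). A polygalacturonase-like gene (Cit.20071.1.S1_s_at), of enzymes that cut the pectin backbone, had 12.77 on both arrays after and 11.19 on both at the start (2.99-fold). The adjusted p of these 5 was at most 4.7e-06 (limma). A polygalacturonase-inhibiting protein (Cit.2559.1.S1_s_at), which acts against such enzymes from fungi, rose too, by 2.45-fold. The largest fall of the array-named list was in a gene named after pectinesterase (Cit.37230.1.S1_at), with 8.66 and 8.73 after and 10.36 and 10.39 at the start (3.19-fold lower).

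Xyloglucan enzymes, which cut and rejoin the chains that tie cellulose together, gave different pictures by list. In the study's annotation, 14 of 14 xyloglucan enzymes and expansins rose (median 2.84), 11 of them by 4-fold. By array name, 12 of 27 were higher and 11 lower, with a median of 0.01. Among the rises, a xyloglucan endotransglucosylase/hydrolase (Cit.17724.1.S1_s_at) had 9.78 and 9.68 after self-pruning and 5.47 and 5.55 at the start (18.7-fold, adjusted p = 2e-05, limma), and Cit.1320.1.S1_s_at, the brightest, had 13.47 on both arrays after and 10.63 and 10.67 at the start (7.05-fold). Expansin (Cit.14005.1.S1_s_at), which loosens walls without cutting them, had 9.78 and 9.76 after and 8.66 and 8.73 at the start, only 2.11-fold. The largest fall in the array-named list, Cit.14210.1.S1_at (15.4-fold lower), is a basic 7S globulin in the study's annotation. Its array name is cut to "xyloglu", which does not show that it is a xyloglucan enzyme.

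**Figure D3:**
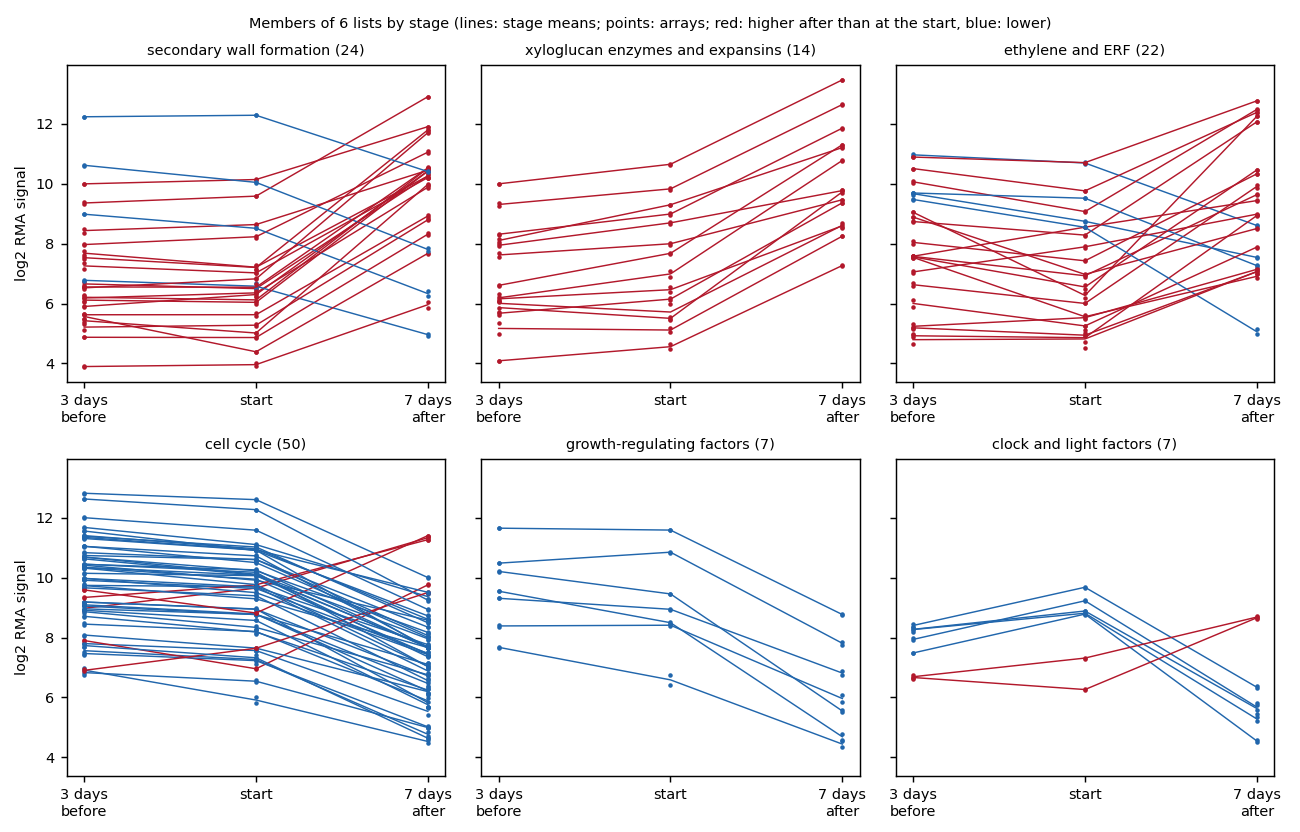
Log2 RMA signals of the members of 6 lists from the study's homologue annotation at 3 days before self-pruning, its start and 7 days after, with lines through stage means and 1 point per array. Red lines are members higher after self-pruning than at its start and blue lines members that were lower. Between the start and 7 days after, secondary wall, xyloglucan and ethylene lists mostly run up and cell cycle, growth-regulating factor and clock lists mostly run down.

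Genes of cell division fell together. Of 50 cell cycle probe sets in the study's annotation, 45 fell and 5 rose (median -2.28), with 34 lower and 2 higher at 4-fold. On the whole array, 55 of 89 cell cycle and DNA replication genes (61.8%) were lower and 16 higher, with a median of -0.49. A mitotic cyclin, G2/mitotic-specific cyclin-1-like (Cit.6513.1.S1_at), which drives entry into mitosis, had 7.65 and 7.64 after self-pruning and 10.92 and 10.91 at the start (9.67-fold lower, adjusted p = 3e-06, limma). Cyclin D3 (Cit.3515.1.S1_s_at), which acts at the entry into the cycle, had 9.22 and 9.28 after and 12.27 and 12.27 at the start, and a CDC20-like activator of the anaphase-promoting complex (Cit.13686.1.S1_s_at) had 7.68 and 7.69 after and 10.71 and 10.74 at the start. These genes of different steps of the cycle fell by 3.02 to 3.27 on the log2 scale. MCM5-like (Cit.14761.1.S1_at), part of the replication helicase, had 7.65 and 7.70 after and 10.07 and 10.11 at the start (-2.41 ± 0.03), and aurora-1-like kinase (Cit.39268.1.S1_s_at) had 8.61 on both arrays after and 10.98 and 10.95 at the start (-2.35 ± 0.03).

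The 5 cell cycle members that rose include inhibitors of division. A siamese-type inhibitor of cyclin-dependent kinases (Cit.38671.1.S1_at), whose Arabidopsis relative stops mitosis in cells that go on copying DNA, had 9.53 and 9.48 after and 7.65 and 7.64 at the start (log2 1.86 ± 0.04). Its array name begins with self-pruning, so the annotations of this probe set differ. Another siamese-type probe set (Cit.14652.1.S1_s_at) rose by 1.68 ± 0.07 and a further kinase inhibitor (Cit.29468.1.S1_s_at) by 1.51 ± 0.03. The other 2 read the catalytic subunit of DNA polymerase epsilon (Cit.29525.1.S1_at, 2.80 ± 0.03, and Cit.2942.1.S1_s_at, 2.58 ± 0.02), whereas another probe set annotated to that subunit (Cit.32821.1.S1_at) was lower by 2.31 on the log2 scale. Other kinase inhibitors of the list, 3-like (Cit.31133.1.S1_at and Cit.5884.1.S1_at), had log2 differences of -1.45 and -1.63.

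Histones, which package newly copied DNA, fell most evenly of the lists by array name. Of 52 histone probe sets, 44 (84.6%) were lower and 0 higher, with a median of -0.91, and 4 were lower by 4-fold. A histone-like gene (Cit.3832.1.S1_s_at) had 9.04 and 9.11 after self-pruning and 11.49 and 11.48 at the start (5.32-fold lower, adjusted p = 4.1e-06, limma), and histone H2AX-like (Cit.17322.1.S1_s_at) had 10.64 and 10.66 after and 12.91 and 12.90 at the start. Tubulins moved less, with 13 of 24 lower and 4 higher (median -0.15), and among actins and profilins 13 were higher and 13 lower of 35.

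Growth-regulating factors promote cell number in young leaves. The study's annotation holds 7 probe sets of the family, kept because they changed against stage 1 on these arrays, and 7 were lower by 4-fold, with a median of -2.82, against 0.948% of all probe sets. Members of the family outside that annotation were not counted, so the share over all probe sets is not a like comparison. Growth-regulating factor 1-like (Cit.24314.1.S1_s_at) had 5.50 and 5.60 after self-pruning and 9.45 and 9.47 at the start (log2 -3.91 ± 0.04, adjusted p = 3e-06, limma), and 3-like (Cit.31056.1.S1_at) had 4.59 and 4.79 after and 8.47 and 8.53 at the start (14.0-fold lower, adjusted p = 7.5e-06, limma). Both ended under the median of the random-sequence probes. The brightest member (Cit.5473.1.S1_at) kept a higher signal, with 8.74 and 8.80 after and 11.60 and 11.58 at the start (7.06-fold lower).

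Meristem and leaf polarity genes of the study's annotation went both ways, with 10 of 15 lower and 4 higher. YABBY1, which marks the lower leaf side, was read by Cit.15713.1.S1_at (7.33 and 7.37 after, 10.82 and 10.86 at the start, 11.2-fold lower) and Cit.6654.1.S1_at (7.21 and 7.29 after, 10.13 and 10.19 at the start, 7.52-fold lower). The homeobox gene ATHB-51-like (Cit.35235.1.S1_at), a regulator of leaf form in Arabidopsis, had 4.53 and 4.40 after and 8.24 and 8.29 at the start (14.0-fold lower). AIL1-like (Cit.3972.1.S1_at), of the AINTEGUMENTA family that keeps cells dividing, had 5.14 and 4.98 after and 8.55 and 8.55 at the start (11.2-fold lower). The adjusted p of these 4 was at most 6.4e-06 (limma). The rises include BEL1-like homeodomain 1-like, read by Cit.12189.1.S1_s_at (11.66 and 11.65 after, 8.36 and 8.33 at the start) and Cit.4169.1.S1_at (8.47 and 8.49 after, 4.90 and 5.21 at the start), while BEL1-like 11-like (Cit.27379.1.S1_at) had 4.07 and 4.46 after and 7.72 and 7.93 at the start. A knotted-1-like 2-like gene (Cit.1376.1.S1_s_at) had 12.19 and 12.17 after and 10.46 and 10.45 at the start (3.30-fold higher). Hence members of the same homeodomain families rose and fell, and no single direction describes them.

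Clock and light genes showed some of the largest falls. The sampling time of day is not given in the sources used here, so a difference in stage and a difference in hour cannot be told apart for these genes. LHY (Cit.19897.1.S1_s_at) had 4.59 and 4.51 after self-pruning and 8.80 and 8.77 at the start (18.8-fold lower, adjusted p = 3e-06, limma). A further probe set of the homeodomain-like gene that the array names after LHY (Cit.29406.1.S1_s_at) had 4.24 and 4.07 after and 8.18 on both arrays at the start (16.3-fold lower). ASG4-like (Cit.2042.1.S1_at), a related MYB-type factor, had 5.60 and 5.76 after and 9.24 and 9.21 at the start (11.7-fold lower), and CONSTANS-like 2 (Cit.17882.1.S1_s_at) had 6.30 and 6.38 after and 9.65 and 9.71 at the start (10.1-fold lower). COP1-like (Cit.14457.1.S1_s_at), a repressor of light responses, was lower by 11.5-fold. PHYTOCLOCK 1 (Cit.35927.1.S1_s_at), an evening factor of the clock, went the other way, with 8.65 and 8.68 after and 6.28 and 6.25 at the start (5.26-fold higher, adjusted p = 4.3e-06, limma). Of the 7 members of the study's list, 5 fell and 2 rose.

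Ethylene response factors mostly rose. Among 22 ethylene and ERF probe sets of the study's annotation, 18 rose and 4 fell (median 2.18), with 13 higher and 3 lower at 4-fold. On the whole array, 47 of 91 genes named for ethylene or AP2/ERF domains (51.6%) were higher and 26 (28.6%) lower, with a median of 0.24. After ERF017-like came an ethylene-responsive factor (Cit.19105.1.S1_at) with 8.95 and 8.92 after self-pruning and 5.01 and 4.71 at the start (16.9-fold), then Cit.18673.1.S1_at and Cit.38467.1.S1_at (log2 3.91 each) and ERF5-like (Cit.1270.1.S1_s_at) with 12.07 on both arrays after and 8.27 and 8.30 at the start (13.7-fold). The adjusted p was at most 1.4e-05 for these genes (limma). Of the 4 members that fell, 1 is ethylene-responsive transcription factor 12-like (Cit.16845.1.S1_at, -1.20 ± 0.04), and 3 are AINTEGUMENTA-like AP2 genes, which act in growth, namely AIL1-like and both AIL5-like probe sets (Cit.12334.1.S1_s_at, -2.09 ± 0.04, and Cit.21438.1.S1_s_at, -2.25 ± 0.02).

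NAC and WRKY factors rose, and MYB factors were mixed on the whole array. Of 43 NAC factors by array name, 27 (62.8%) were higher and 4 (9.30%) lower (median 0.34), and 18 of 18 in the study's annotation rose. Some of these rises followed a lower level at the start. Cit.1497.1.S1_s_at had 10.74 and 10.79 at 3 days before, 6.57 and 6.74 at the start and 9.39 on both arrays after. Between 3 days before and the start, the median difference of the 18 was -0.08. The largest rise (Cit.14763.1.S1_at) had 8.95 and 9.01 after self-pruning and 5.13 and 5.29 at the start (13.6-fold). NAC2-like (Cit.3449.1.S1_s_at), the brightest, had 12.41 and 12.42 after and 9.82 and 9.85 at the start (5.98-fold). For WRKY factors, known from defence and senescence, 10 of 13 by array name were higher and 2 lower (median 0.44). WRKY70-like (Cit.6048.1.S1_s_at), which acts in salicylate signalling in Arabidopsis, had 12.04 on both arrays after and 8.78 and 8.74 at the start (9.70-fold, adjusted p = 3e-06, limma). Of 75 MYB factors by array name, 24 were higher and 32 lower (median -0.08), close to all probe sets, whereas 10 of 11 in the study's annotation rose. MYB103 (Cit.31943.1.S1_at), a secondary wall regulator in Arabidopsis, had 6.71 and 6.73 after and 4.38 and 4.37 at the start (5.08-fold). The exception, APL (Cit.30230.1.S1_at), which specifies phloem in Arabidopsis, had 7.09 and 7.06 after and 10.26 and 10.28 at the start (9.13-fold lower).

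Hormone genes other than those of ethylene rose more often than they fell in the abscisic acid, gibberellin and jasmonate lists and split in auxin. Over all probe sets, 29.1% were higher and 36.5% lower. For abscisic acid, 10 of 17 were higher and 6 lower (median 0.53), with 5 higher by 4-fold. The 9-cis-epoxycarotenoid dioxygenase gene (Cit.13915.1.S1_at), a key step of abscisic acid synthesis, had 9.23 and 9.26 after self-pruning and 6.28 and 6.34 at the start (7.66-fold, adjusted p = 3.6e-06, limma). An abscisic acid stress ripening gene (Cit.8654.1.S1_x_at) had 12.96 and 12.95 after and 10.41 and 10.45 at the start (log2 2.52). These are a gene of synthesis and a gene of response. For gibberellin, 13 of 26 were higher and 6 lower (median 0.24). Gibberellin 2-beta-dioxygenase 8-like (Cit.36807.1.S1_s_at), which inactivates the hormone, had 10.02 and 10.08 after and 7.35 and 7.51 at the start (6.16-fold), and ent-kaurenoic acid oxidase (Cit.13587.1.S1_at), which makes its precursors, had 9.16 and 9.22 after and 6.87 and 7.08 at the start (log2 2.22). Genes of both making and removal thus rose. The largest fall of the list, a gibberellin-regulated protein (Cit.11064.1.S1_at), had 10.9 and 10.93 after and 12.8 and 12.81 at the start (3.71-fold lower). In the jasmonate and salicylate list, 12 of 21 were higher and 5 lower (median 0.42), none by 4-fold.

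Auxin genes did not move one way. By array name, 37 of 99 were higher and 36 lower (median 0.06), beside 29.1% and 36.5% over all probe sets. These 99 were not split by gene family. In the study's annotation, which holds only genes called as changed against stage 1 on these arrays, 8 of 13 rose and 5 fell. Of its 7 probe sets named auxin-induced protein 5NG4 or AUX28, 7 rose, among them Cit.14663.1.S1_at (11.15 and 11.14 after, 8.70 and 8.74 at the start, 5.37-fold). A SAUR gene (Cit.29704.1.S1_s_at), of a family of early auxin response genes, had 10.16 and 10.18 after and 6.77 and 7.03 at the start (9.61-fold). Auxin response factors, the transcription factors of the pathway, were lower in 4 of 4 probe sets of that annotation. Auxin response factor 17-like (Cit.25299.1.S1_at) had 7.52 and 7.53 after and 10.36 on both arrays at the start (7.14-fold lower), and auxin response factor 2 (Cit.1334.1.S1_at) had 7.45 and 7.60 after and 10.04 on both at the start (5.72-fold lower). The adjusted p of the named auxin genes was at most 1.6e-05 (limma).

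Cuticle and lipid transfer genes were more often higher than lower. Of 37 by array name, 17 (45.9%) were higher and 9 (24.3%) lower, beside 29.1% and 36.5% over all probe sets. The median of these 37 was only 0.15. Of 17 in the study's annotation, kept because they changed against stage 1 on these arrays, 13 rose and 4 fell (median 2.45). Both probe sets of HOTHEAD-like, which keeps organs from fusing and acts on cutin, were higher. Cit.22187.1.S1_s_at had 11.10 on both arrays after self-pruning and 7.45 and 7.58 at the start (log2 3.58), and Cit.3339.1.S1_at had 11.43 and 11.34 after and 8.40 and 8.24 at the start. Cytochrome P450 86A2-like (Cit.28881.1.S1_s_at), of a family that makes cutin acids, had 10.36 on both arrays after and 6.87 and 7.13 at the start (10.3-fold). Members that lengthen fatty acids went both ways, since 3-ketoacyl-CoA synthase 21-like (Cit.33327.1.S1_at) had 9.76 and 9.78 after and 6.53 and 6.45 at the start (9.70-fold higher). Among the 4 that fell, ECERIFERUM 1-like (Cit.11241.1.S1_s_at), which makes wax alkanes, had 8.60 and 8.63 after and 11.57 and 11.58 at the start (7.76-fold lower, adjusted p = 3e-06, limma), WAX2-like was lower in both of its probe sets (Cit.11240.1.S1_at and Cit.38030.1.S1_at, -2.30 and -1.85), and 3-ketoacyl-CoA synthase 11-like (Cit.26284.1.S1_at) was lower by 3.65-fold.

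Defence genes were called higher more often than lower, many of them dim, with exceptions among the brightest. Of 174 disease resistance proteins by array name, 73 (42.0%) were higher and 31 (17.8%) lower, with a median of only 0.12. Over all probe sets, 29.1% were higher and 36.5% lower. Median signals of the 174 were 5.65 and 5.66 after self-pruning and 5.28 and 5.29 at the start, near the highest reporter signals. Small differences in this list are therefore no more than the controls show. The 5 that passed 4-fold upwards include a CC-NBS-LRR gene (Cit.30484.1.S1_at) at 6.10 and 6.06 after self-pruning and 3.93 and 4.07 at the start, under the median of the random-sequence probes. Of 94 chitinases and pathogenesis-related proteins, 41 were higher and 26 lower, and 12 were higher by 4-fold with 0 lower. Of the 12, 3 are the chitinase-like 2 probe sets already named for the wall and 5 are miraculin-like proteins, relatives of trypsin inhibitors, such as Cit.29356.1.S1_x_at (12.01 and 11.99 after, 9.66 and 9.71 at the start). PR-1-like (Cit.31825.1.S1_at), a marker of salicylate defence, had 11.07 on both arrays after and 8.70 and 8.76 at the start (log2 2.34 ± 0.07). Going down, class I chitinase (Cit.30425.1.S1_x_at) had 11.49 and 11.50 after and 13.87 and 13.83 at the start (5.10-fold lower). Its array name, "acidic class", leaves it out of the 94, so the 0 lower covers matched names only. An osmotin-like gene (Cit.421.1.S1_s_at) had 11.36 on both arrays after and 13.21 and 13.18 at the start (3.57-fold lower).

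Ribosomal, photosynthesis and proteasome genes fell by small amounts in large numbers. Of 342 ribosomal proteins by array name, 251 (73.4%) were lower and 14 (4.09%) higher, with a median of -0.50 and none past 4-fold in either direction. The largest fall (Cit.10266.1.S1_at) had 8.54 and 8.65 after self-pruning and 10.12 and 10.16 at the start (2.91-fold lower, adjusted p = 2.6e-05, limma). Of 65 photosystem and light-harvesting genes, 48 (73.8%) were lower and 6 (9.23%) higher (median -0.36), and of 156 proteasome and ubiquitin genes 82 (52.6%) were lower and 22 (14.1%) higher (median -0.21). A ubiquitin extension protein (Cit.12835.1.S1_s_at), which carries ubiquitin fused to a ribosomal protein in plants, had 9.44 and 9.50 after and 11.16 and 11.15 at the start (3.22-fold lower), while ubiquitin-conjugating enzyme E2 10 (Cit.4964.1.S1_at) had 11.52 and 11.54 after and 9.44 and 9.48 at the start (4.21-fold higher). Flavonoid enzymes were lower in 30 of 57 and higher in 12 (median -0.26). Chalcone isomerase (Cit.37518.1.S1_s_at), an early step of the pathway, had 9.18 and 9.25 after and 12.35 and 12.34 at the start (8.72-fold lower, adjusted p = 3.3e-06, limma).

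**Figure D4:**
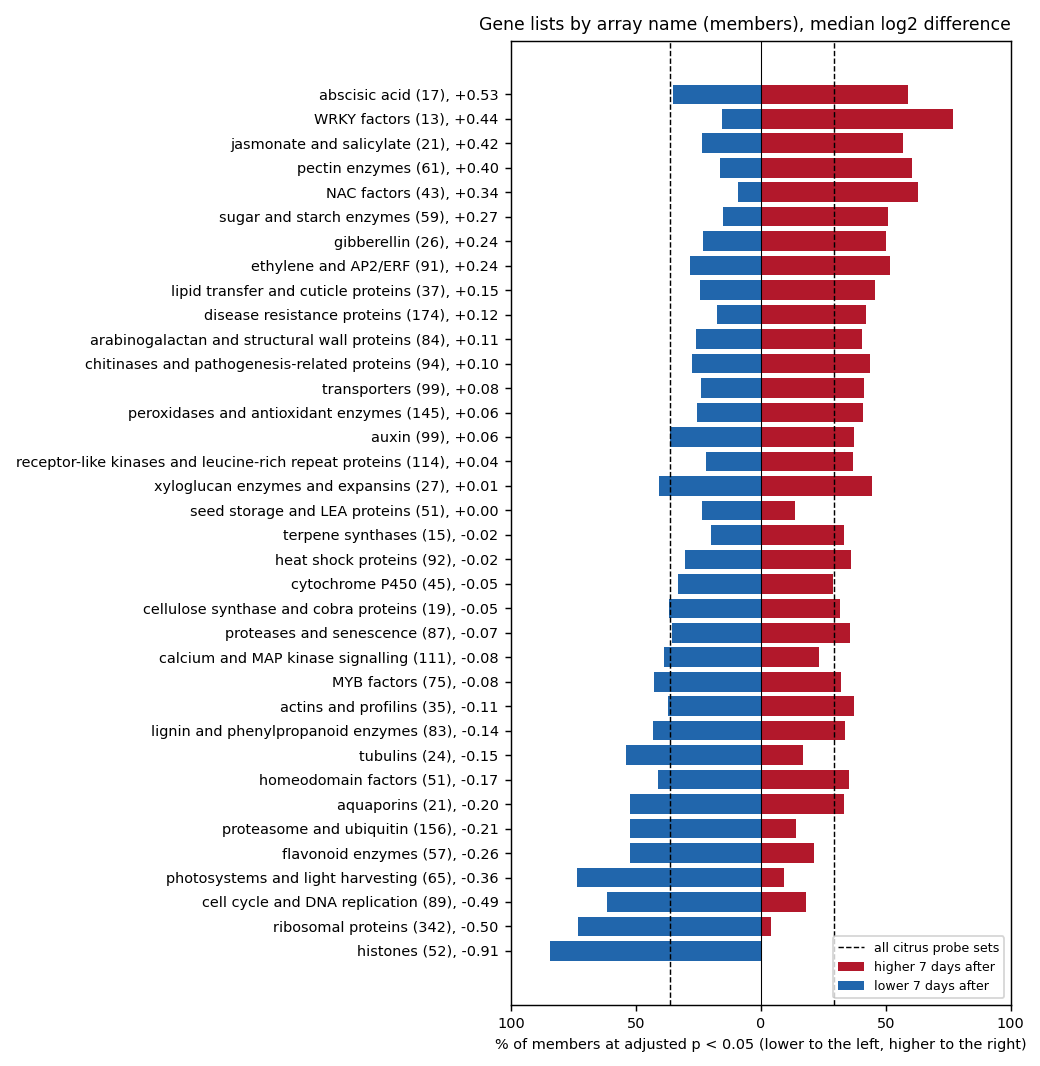
Share of the members of 36 gene lists, built on the array's shortened gene names, that were higher (right, red) or lower (left, blue) 7 days after self-pruning than at its start at an adjusted p under 0.05, with the number of members and the median log2 difference. Dashed lines mark the shares over all citrus probe sets, 29.1% higher and 36.5% lower, and histones and ribosomal proteins stand at the lower end.

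**Figure D5:**
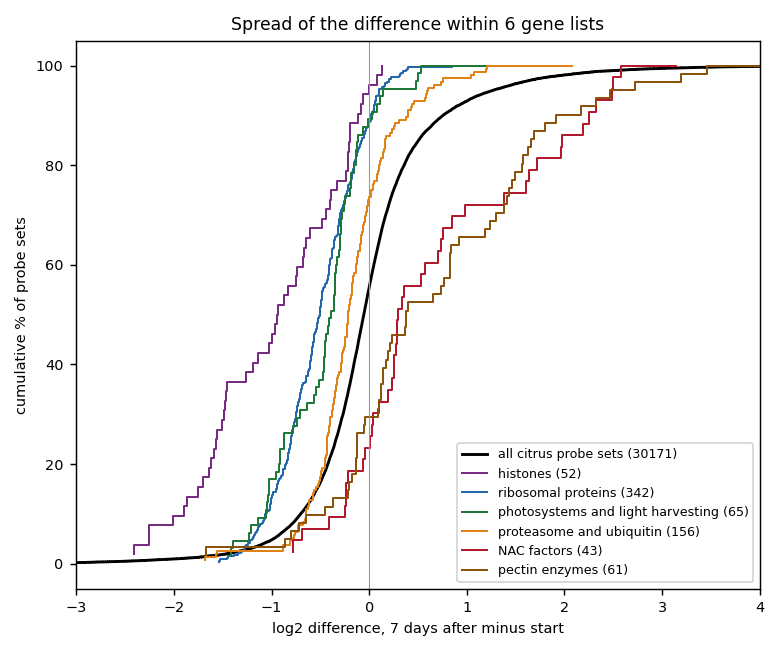
Cumulative share of probe sets (vertical axis, percent) against the log2 difference between 7 days after self-pruning and its start (horizontal axis) for all citrus probe sets and 6 lists. Ribosomal protein and photosystem curves lie left of the black curve over most of their length, whereas NAC factors and pectin enzymes have long tails to the right.

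Some lists lay close to the array as a whole. Cytochrome P450 genes (13 higher and 15 lower of 45, median -0.05), proteases and senescence genes (31 and 31 of 87, median -0.07), heat shock proteins (33 and 28 of 92, median -0.02) and calcium and MAP kinase genes (26 and 43 of 111, median -0.08) differed little from the shares over all probe sets. Single members of such lists still moved far. Heat shock factor HSF30-like (Cit.10465.1.S1_s_at) had 11.33 and 11.35 after self-pruning and 8.93 and 8.93 at the start (5.31-fold), and a subtilisin-like protease (Cit.15572.1.S1_at), of a family active in the wall space, had 10.32 and 10.25 after and 8.01 and 8.02 at the start (4.83-fold). Sugar and starch enzymes were higher in 30 of 59 and lower in 9 (median 0.27), and a trehalose-phosphate phosphatase-like gene (Cit.24193.1.S1_at), which makes the sugar trehalose, was the largest exception, with 5.37 and 5.60 after and 8.34 and 8.33 at the start (7.20-fold lower). Of 51 seed storage and LEA proteins, 32 did not pass the test.

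Markers of cell types in the tip moved with these groups. Of 20 markers of dividing cells, 20 were lower, with mean log2 signals of 8.16 and 8.18 after self-pruning and 10.22 and 10.23 at the start. Of 29 markers of meristem and leaf primordia, 18 were lower and 6 higher, with means of 7.24 and 7.26 after and 8.43 and 8.45 at the start. Of 19 xylem and fibre markers, 13 were higher and 4 lower, with means of 8.44 and 8.41 after and 6.61 and 6.62 at the start. Green leaf markers were lower in 7 of 9 and higher in 0, epidermis markers lower in 8 of 12 and higher in 4, and phloem markers higher in 6 of 10 and lower in 3. Of 43 seed and embryo markers, 17 were under 5 on all 4 arrays. Over all citrus probe sets, 29.1% were higher and 36.5% lower. Most of the xylem and dividing cell markers (15 of 19 and 16 of 20) are in the study's annotation and overlap the lists above. So are 10 of 12 epidermis markers and 18 of 29 markers of meristem and leaf primordia. That annotation holds only genes called as changed against stage 1 on these arrays. Whether the makeup of the tips accounts for the changes in wall and division genes was not tested.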

How the data were processed

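The authors hybridized RNA to the Citrus Genome GeneChip and deposited log2 signals, made with RMA in Expression Console 1.1; their methods also name Microarray Suite 5.0. The other deposited file has stage means with p-values, ratios and fold changes of the authors, and only its gene names were used. Here 224 rows of controls and other non-citrus sequences were left out, and limma 3.58.1 in R 4.3.3 was fitted to the log2 signals of all 6 arrays (lmFit, contrast of stage 3 minus stage 2, eBayes, no covariates; prior degrees of freedom 1.548); the fold and unadjusted p thresholds are those of the study's methods. The procedure was tested on simulated data. SAM, named in the methods, was not run, since labels were not permuted. Array number limits the precision.

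Named genes come from the 15 largest rises and falls past 4-fold with a homologue name, 1 probe set per name. They also come from the largest changes of each list, the probe sets of the study's text and primer list, and the largest unnamed changes. Not every probe set under these rules is named in the text. The 15 rises and falls were taken only from probe sets with an adjusted p under 0.05 and no overlap between arrays of the 2 stages. Further members were chosen after their values were seen. Members and lists were chosen with earlier results of these data known. Array lists match the first letters of gene names on the array (23634 probe sets have one), the others the homologue names of 1377 probe sets. 1 probe set has another identifier in the table of gene names and was neither named nor counted as unnamed. Alternatives were other scalings, fits, signal filters, thresholds and each array left out. Python 3.11.15, numpy 2.4.6, pandas 2.3.3 and matplotlib 3.10.9 made the tables and figures.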

Additional observations from a re-analysis of the deposited data

How the results depend on the processing

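The counts at 4-fold depended mainly on the thresholds. At 2-fold, 2136 probe sets were higher and 1429 lower, and at 8-fold 170 and 64. With a mean signal over all 6 arrays of at least 8, which tests fewer probe sets, 229 were higher and 194 lower at 4-fold. By adjusted p, 5060 were higher and 6599 lower, with a median difference of -0.09. Probe sets called higher at 4-fold had median signals of 6.8 at stage 1 and 6.49 at stage 2, against 9.65 and 9.6 for those called lower. Such a filter removes rises more than falls, so it cannot show whether rises lead by less. Centring each array on its median moved the median over all probe sets to -0.099. The share of calls that were higher was 44.3%, and 39.6% after centring. Leaving out 1 array in turn gave 554 to 589 higher and 271 to 295 lower at 4-fold, 7804 to 8533 higher and 9695 to 10708 lower by adjusted p, and a median of -0.063 to -0.045; 14 to 27 of the 851 calls were lost without 1 array of stage 3 or stage 2. No source ties same-numbered arrays to the same trees. With the replicate number as a block, the same 851 probe sets were called at 4-fold and 9559 and 12222 passed by adjusted p; deviations of same-numbered arrays correlated at 0.46 between stages 3 and 2, 0.48 between stages 3 and 1 and 0.56 between stages 2 and 1. Named probe sets kept direction and call in 1873 cases, with 8 calls lost and 8 gained, all in Cit.1630.1.S1_at and Cit.9817.1.S1_at, which the text does not use. Of list counts, 113 moved by over 1.5 times and 1507 did not; of list medians, 149 moved and 661 did not, with 8 to 13 lists moved by leaving out 1 array of stage 3 or stage 2. Dim signals and 2 arrays per stage limit the sizes given.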

Other observations

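Some probe sets had their lowest signals at the start of self-pruning, below both the arrays from 3 days before and those from 7 days after. A LEA4 gene (Cit.39178.1.S1_s_at), of a family linked to drying tissue, had 10.91 and 10.88 at 3 days before, 5.72 and 5.72 at the start and 7.55 and 7.81 at 7 days after. NAC genes Cit.22463.1.S1_s_at (9.71 and 9.69 before, 5.13 and 5.20 at the start, 7.0 and 6.96 after) and Cit.10152.1.S1_s_at (9.10 and 9.16 before, 4.35 and 4.34 at the start, 5.91 and 6.11 after) had the same order of stages. In these 3 the signal after self-pruning was above that at the start but below that of 3 days before. They were chosen after their values were seen.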
